A study of Drosophila melanogaster with 30 samples.

Results

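The CCT chaperonin (also called TRiC) is built from 8 subunits, CCT1 to CCT8, and the fly genes that encode them were followed here through the CrebB-binding profiles of trained and naïve flies. The 8 genes were taken by name and make up 8 of the 17480 genes with a value other than 0 in at least 1 profile. They were chosen on a value of these same data, since CCT4 was higher in paired than in unpaired flies in all 3 replicate pairs at the first time interval and the question was whether the other 7 subunits shared that rise. The values of that contrast are therefore given as a description.

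Targeted DamID (TaDa) was used to record where the transcription factor CrebB had been on the DNA of mushroom body (MB) cells. A bacterial DNA adenine methyltransferase (Dam), alone or fused to CrebB, was expressed from UAS-Dam or UAS-Dam-CrebB under mb247-Gal4, which drives expression in MB neurons, and tubGal80ts held expression off until flies were shifted to 29°C. Each of 15 profiles compares a Dam::CrebB sample with a Dam-only sample, which makes 30 samples with 3 replicates for each of 5 groups. Whole heads of 50 to 100 adult flies were pooled per sample, and all groups carried the same driver. Paired flies received an odor together with sucrose, and unpaired flies received odor and sucrose separately in time. Time is counted from conditioning. In time interval 1 (TI-1) the methylase was on from -3 h to 24 h, with induction at 29°C and a training session at 25°C. In time interval 2 (TI-2) training took place at 18°C, and induction at 29°C covered 24 h to 48 h. Naïve flies had no training, and their labels give 29°C but no interval, so a single naïve group was set against both intervals.

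The CCT complex is a double-ring chaperonin of the cytosol that uses ATP to fold newly made proteins, of which actin and tubulin are the best known. Each ring holds one copy of every subunit, so the complex needs the products of all of these genes, and the co-chaperone prefoldin hands over unfolded chains to it. CrebB is the fly member of the CREB family, whose activity is required for long-term memory.

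The measured value sets the Dam::CrebB signal on a GATC fragment against that of Dam-only, as a log2 ratio. A GATC fragment is the stretch of DNA between neighbouring GATC sites at which Dam methylates. A gene value is the length-weighted mean of these ratios over all fragments that touch the gene body, and values above 0 mean more signal from the fusion than from Dam-only. It records methylation near a gene and not the amount of its RNA. Read counts are not in the profiles, so the depth behind each ratio is unknown and the number of replicates limits the precision. The label "mushroom body cells" was set against genes known from these cells. In naïve flies, eyeless (ey) had a log2 ratio of 0.44, twin of eyeless (toy) of 0.69 and the vesicular transporter gene prt of 0.57. The other mushroom body genes were lower, with rut at 0.34, Dop1R1 at 0.32, Dop1R2 at 0.30, sNPF at 0.29, dac at 0.27 and dnc at 0.11. The glial gene repo had -0.38, but a binding ratio does not test which cells carried the methylase.

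A pair of profiles stood apart from the others before any gene was considered. Across fragments, replicate 3 of paired flies at TI-1 correlated with the other profiles at r = -0.20 to 0.24, apart from replicate 3 of paired flies at TI-2, with which its r was 0.60. Among the 11 naïve and replicate 1 and 2 profiles, r ran from 0.71 to 0.94. That set leaves out replicate 3 of unpaired flies at both intervals, whose own r is not given here. The median gene of paired replicate 3 was at 0.62 on the log2 scale for TI-1 and at 0.12 for TI-2. The differences of the subunits are therefore given by pair or also without this replicate number, and fragments are neighbours on 1 chromosome and not independent points.

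The subunit genes lie on 4 chromosome arms, with positions as listed by RefSeq for release 6 of the fly genome. CCT4 (CG5525) lies on 2L at 12690336 to 12692934 and is covered by 25 fragments. CCT1 (CG5374; 3R, 22489105 to 22491439), CCT3 (CG8977; 3R, 16647605 to 16649978) and CCT7 (CG8351; 3R, 8801564 to 8806234) are covered by 19, 12 and 20 fragments. CCT2 (CG7033; 9089513 to 9092826) and CCT6 (CG8231; 15746648 to 15748971) lie on X with 22 and 17 fragments. CCT5 (CG8439) and CCT8 (CG8258) lie on 2R with 17 and 15 fragments. All 8 genes had a value in every profile, and each was covered by more fragments than the median gene, which had 8. CCT7 shared 9 of its 20 fragments with other genes, 7 of them with CG9839, which lies inside it, and CCT8 shared none. Strand and exon positions were not used here, so positions within a gene are given from its lower end on the chromosome.

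In naïve flies the subunit genes did not have a common level. CCT4, which encodes the delta subunit, had the lowest ratio, at -0.41, -0.63 and -0.43 in the 3 replicates (mean -0.49 ± 0.12, SD, n = 3). CCT7, the eta subunit, had the highest at 0.23, 0.50 and 0.65 (0.46 ± 0.21), followed by CCT6, the zeta subunit, at 0.27, 0.42 and 0.29 (0.33 ± 0.08). All replicates of these 3 genes lay on the same side of 0, and CCT4 did not overlap any other subunit.

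The other subunits lay close to 0 in naïve flies. CCT5 was at 0.12 ± 0.04, CCT8 at 0.06 ± 0.09, CCT2 at -0.03 ± 0.07, CCT3 at -0.07 ± 0.08 and CCT1 at -0.13 ± 0.10 (SD, n = 3 each). In this order, each gap between neighbours was smaller than the larger of their SDs, as was the gap between CCT7 and CCT6. CCT5, CCT6 and CCT7 had all replicates above 0, a pattern that 43% of all genes had. CCT1, CCT3 and CCT4 had all replicates below 0, as did 39.3% of all genes.

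Set against 0 with limma, no gene of any kind passed an adjusted p of 0.01 together with a ratio above 0.2 in size, so 0% of genes were called in either direction. The smallest adjusted p of all genes was 0.0111. At an adjusted p of 0.05, CCT4 was called below 0 (-0.49, SE 0.06, limma adjusted p = 0.0122), as were 17.3% of all genes. CCT6 (0.33, SE 0.05, limma adjusted p = 0.0136) and CCT7 (0.46, SE 0.09, limma adjusted p = 0.0253) were called above 0, as were 28.6% of all genes. CCT5 missed this threshold (limma adjusted p = 0.05003) with a ratio of 0.12, below the minimum size, and the remaining subunits had adjusted p from 0.115 to 0.607.

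The level of CCT7 came from the fragments that it shares with its neighbours. Its lowest fragment, 1920 bp long and overlapping 3 genes, had ratios of 1.01, 2.13 and 2.05 in naïve flies. With the fragments that overlap no other gene alone, the naïve mean of CCT7 was -0.09 in place of 0.46. On the same fragments CCT6 kept 0.24, CCT3 changed from -0.07 to 0.12 and CCT4 was at -0.51. CCT4 was thus the lowest subunit gene of naïve flies with or without shared fragments, whereas the place of CCT7 at the top rested on the shared ones.

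**Figure D1:**
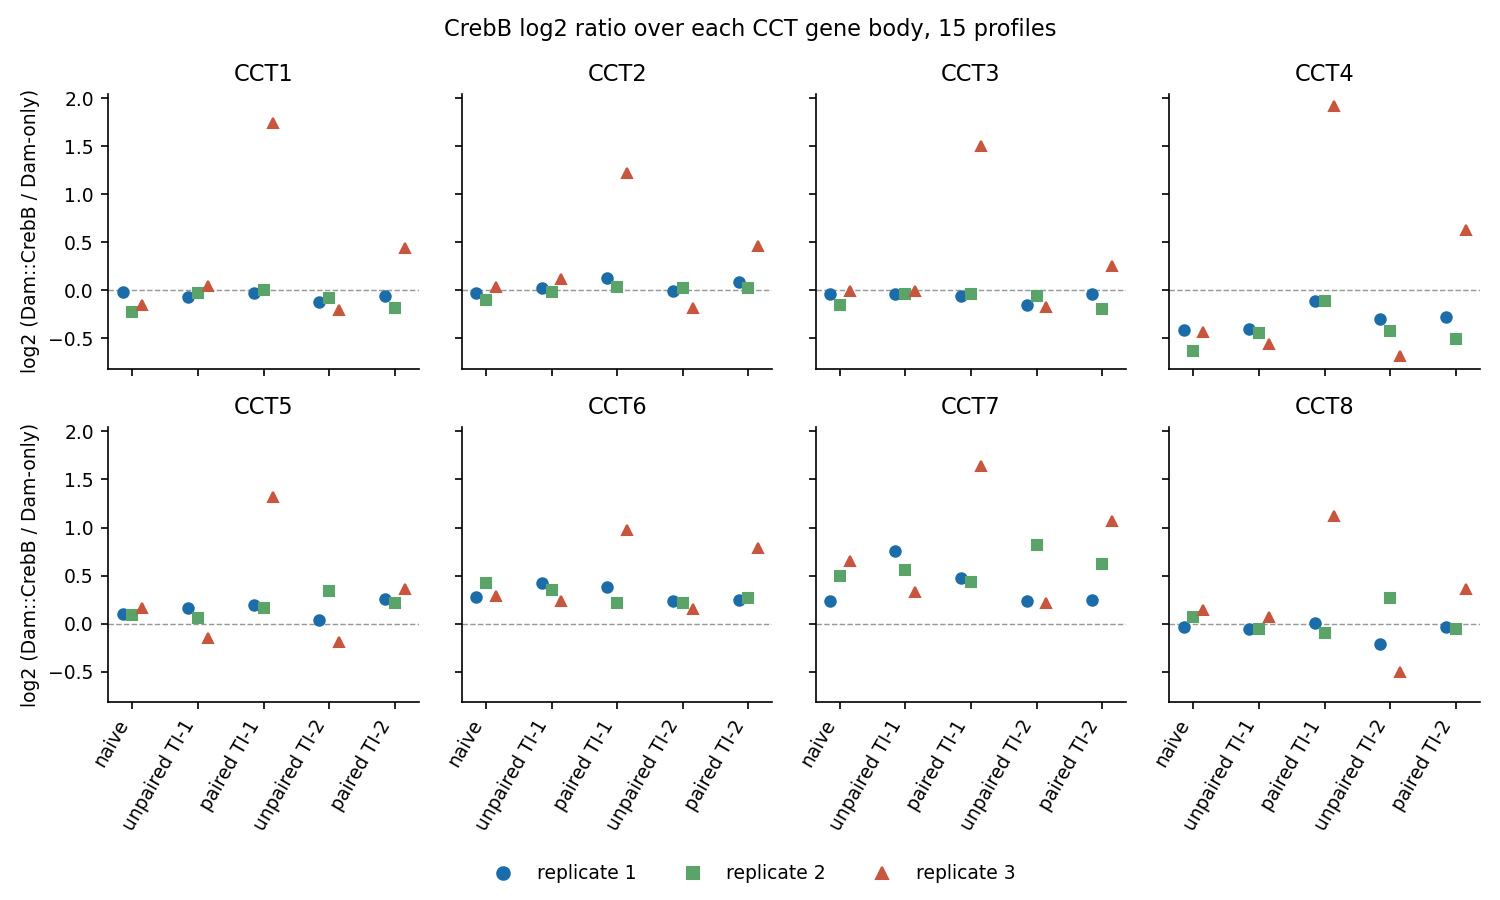
Dam::CrebB signal relative to Dam-only, as a log2 ratio (vertical axis), for each of the 8 CCT genes, with 1 point per profile in the 5 groups and a dashed line at 0. CCT4 lies below 0 in all profiles except replicate 3 of paired flies at TI-1 (1.92) and TI-2 (0.63), and these 2 profiles are also above 0 for every other subunit.

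By group mean, CCT7 was highest in all 5 groups and CCT6 second in all but paired flies at TI-1, where CCT1 was second. CCT4 was last in 4 groups and stood between CCT1 and CCT5 in paired flies at TI-1. By profile, CCT4 was the lowest subunit in 13 of 15. The exceptions were replicate 3 of paired flies at TI-1, where CCT6 was lowest, and at TI-2, where CCT3 was lowest. CCT7 was the highest subunit in 11 profiles, and CCT6 and CCT7 were above 0 in all 15. CCT5 was above 0 in 13 profiles, CCT2 in 10, CCT8 in 7, CCT1 in 4, CCT3 in 2 and CCT4 in 2. Leaving out replicate 3 of the paired flies, CCT3 was below 0 in the remaining 13 profiles and CCT4 ran from -0.69 to -0.11.

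Ranking each gene among all genes of its own profile removes differences in overall level between profiles. In the naïve replicates CCT4 stood at percentiles 2.43, 2.47 and 5.19 of all genes. In unpaired flies it stood at 1.89, 1.19 and 0.812 at TI-1 and at 6.99, 2.74 and 1.73 at TI-2. In paired flies at TI-1 it stood at 23.1, 12.3 and 90.0, above every naïve and unpaired profile. In paired flies at TI-2 the first and second replicates were back at 6.49 and 1.69, and replicate 3 was at 77.4.

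CCT6 and CCT7 kept their rank most closely. CCT7 stayed between percentiles 75.5 and 93.4 in all 15 profiles and CCT6 between 64.6 and 82.2. CCT4 moved across 0.812 to 90.0 and CCT1 across 15.9 to 86.8. In the 13 profiles without replicate 3 of the paired flies, CCT4 moved across 0.812 to 23.1, a wider range than that of CCT6 or CCT7 and a narrower one than that of the other subunits. CCT8 then had the widest, from 3.90 to 72.0, followed by CCT5 at 13.6 to 77.1, CCT2 at 17.7 to 63.0, CCT1 at 15.9 to 52.5 and CCT3 at 16.2 to 44.9.

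**Figure D2:**
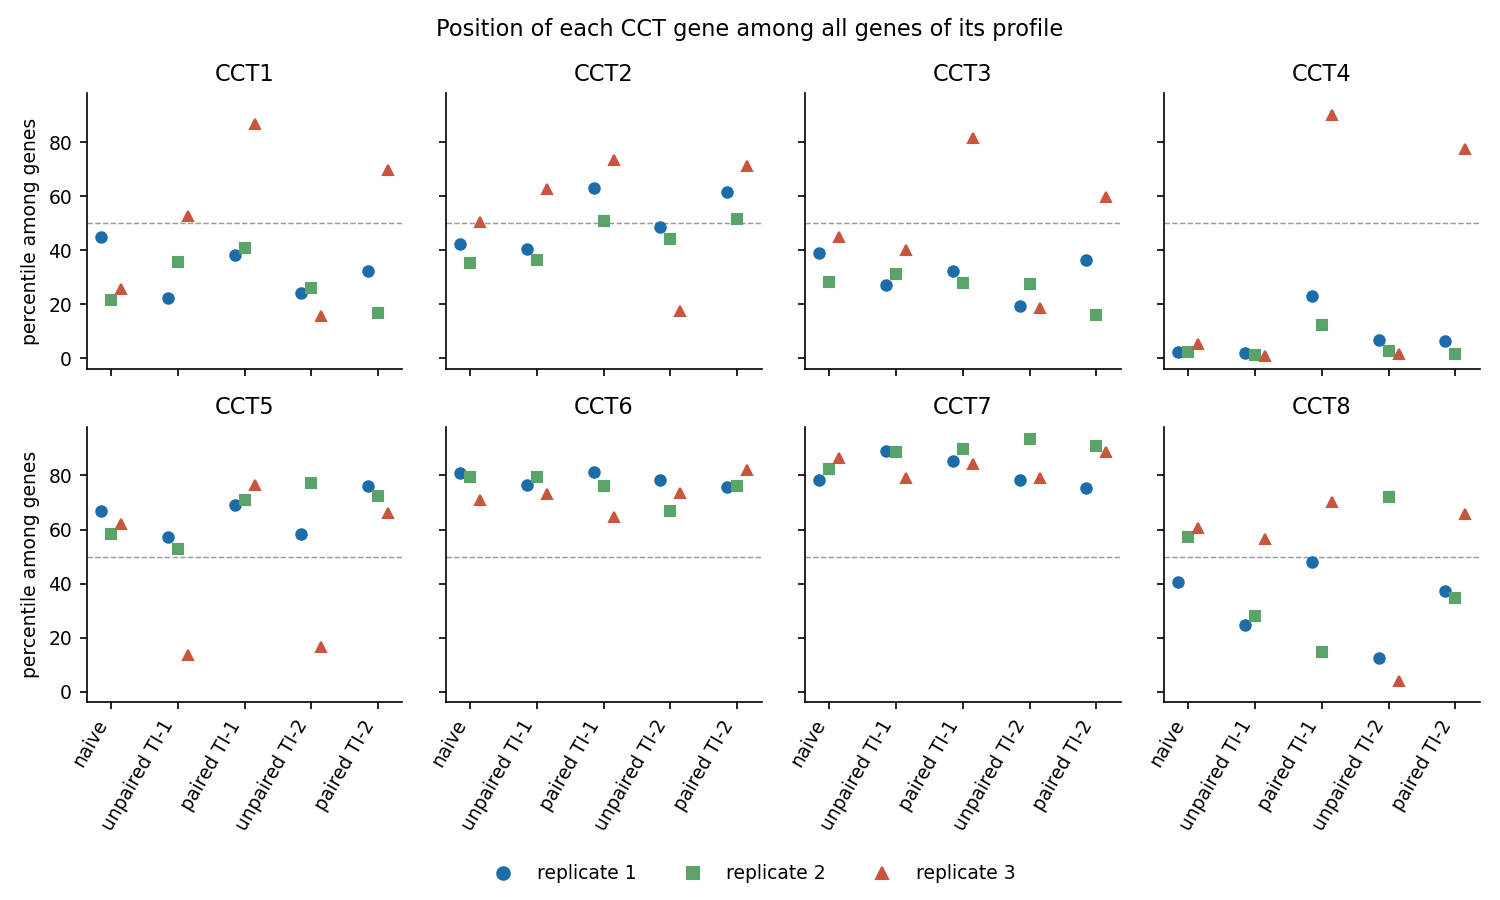
Percentile of each CCT gene among all genes of the same profile (vertical axis, 0 to 100) in the 15 profiles, grouped by training and interval. CCT4 lies under percentile 7 in the naïve and unpaired profiles and at 23.1, 12.3 and 90.0 in paired flies at TI-1, while CCT6 and CCT7 stay above 50 throughout.

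Paired minus unpaired flies at TI-1 is the contrast by which the gene set was chosen, and it compares flies that had odor and sucrose together with flies that had them apart. CCT4 had log2 ratios of -0.12, -0.11 and 1.92 in paired flies and -0.40, -0.44 and -0.56 in unpaired flies. The 3 paired values lay above the 3 unpaired ones, and those of replicates 1 and 2 were still below 0. The differences within replicate numbers were 0.28, 0.33 and 2.48 (mean 1.03 ± 1.26, SD, n = 3), and the mean without replicate 3 was 0.30. These differences stood at percentiles 97.9, 99.7 and 97.6 of all genes.

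None of the other 7 subunits had differences of that size in replicates 1 and 2. CCT2, the beta subunit, came next with 0.11, 0.05 and 1.10. CCT5, the epsilon subunit, had 0.03, 0.11 and 1.47. CCT1, the alpha subunit, had 0.04, 0.02 and 1.70. These 3 genes were thus above 0 in all pairs, by at most 0.11 in the first and second. CCT1 and CCT2 are known from yeast and mammals as the ring neighbours of CCT4. In yeast, CCT1, CCT2, CCT4 and CCT5 are the subunits that bind ATP most strongly. Both groupings are background, and a link between them and the differences was not tested.

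The remaining subunits had mixed signs. CCT3, the gamma subunit, had -0.02, 0.01 and 1.51, and CCT8, the theta subunit, had 0.06, -0.04 and 1.05. CCT6 had -0.04, -0.14 and 0.73, and CCT7 had -0.28, -0.12 and 1.31. Without replicate 3 the means were -0.00 for CCT3, 0.01 for CCT8, -0.09 for CCT6 and -0.20 for CCT7, against 0.08 for CCT2, 0.07 for CCT5 and 0.03 for CCT1. Over all fragments, CCT4 had the lowest naïve mean of the family (-0.49), and CCT7 (0.46) and CCT6 (0.33) the highest. Whether these differences depend on the naïve level of a gene was not tested.

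Counted over the family, 4 of 8 subunits (CCT1, CCT2, CCT4 and CCT5) were above 0 in all 3 pairs, against 10.3% of all genes. The same 4 were above 0 in pairs 1 and 2, against 10.7%. CCT6 and CCT7 were below 0 in both of these pairs, as were 41.6% of all genes, and no subunit was below 0 in all 3 pairs, against 10.1%. Only CCT4 exceeded 0.2 in all pairs, which 0.383% of genes did. All paired profiles lay above all unpaired profiles for CCT4 and CCT5, against 4.27% of all genes. For CCT5 that separation was narrow, with a lowest paired value of 0.16 and a highest unpaired value that also rounds to 0.16. Because the contrast was used to choose the genes, nothing is read from these counts.

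In the third pair most genes were higher in paired flies, and the subunits with them. All 8 were above 0 in it, from 0.73 for CCT6 to 2.48 for CCT4, and so were 82.8% of all genes, with an all-gene median of 0.47. In pairs 1 and 2 the all-gene medians were -0.08 and -0.00. The medians of the other 7 subunits were 0.03, 0.01 and 1.31 in the 3 pairs. After subtraction of the all-gene median, CCT4 was at 0.36, 0.33 and 2.01, CCT1 at 0.12, 0.03 and 1.23 and CCT7 at -0.20, -0.11 and 0.84. With each profile centred on its median gene, CCT1 to CCT5 were above 0 in all pairs (15.6% of all genes). With quantile normalization of the profiles these were CCT1, CCT2, CCT4 and CCT5 (13.5% of all genes), and CCT6 then fell to -0.12 in pair 3.

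Across all genes the limma test of this contrast called 0% of genes at an adjusted p of 0.01, in either direction, and the subunits had adjusted p from 0.836 to 0.845. At an unadjusted p of 0.05 with a difference above 0.2 in size, 0.00572% of genes were higher and 1.02% lower in paired flies, with no subunit among them. Without replicate 3, 127 of the 17480 genes were higher and 970 lower by the same criteria. CCT4 was then the only subunit among them, on the contrast by which it was chosen.

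**Figure D3:**
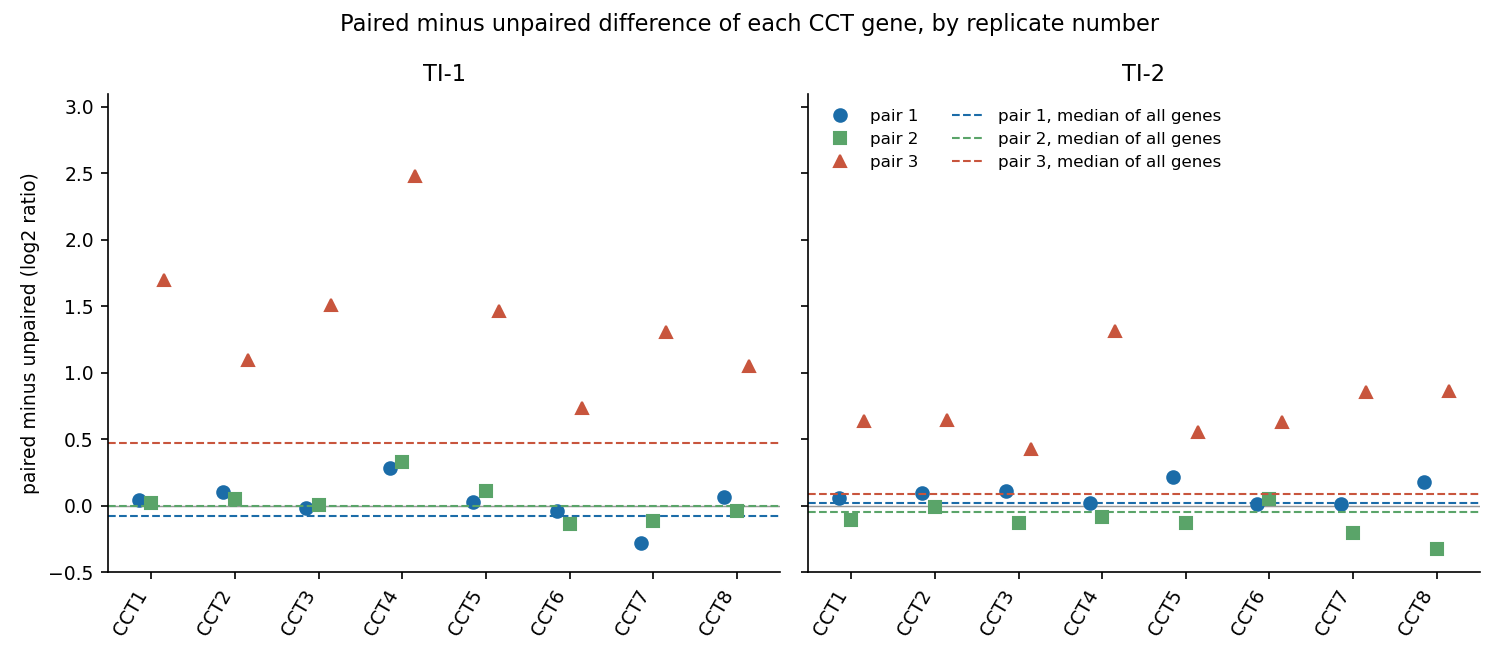
Difference in log2 ratio between paired and unpaired flies of the same replicate number (vertical axis) for each CCT gene at TI-1 and TI-2, with 1 marker per pair and the all-gene median of each pair for comparison. At TI-1 the CCT4 differences are 0.28, 0.33 and 2.48, the other 7 genes lie within -0.28 to 0.11 in pairs 1 and 2, and all 8 lie above 0 in pair 3.

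The differences of CCT4 were unevenly spread along the gene. Its fragments were grouped into stretches after their values were seen. From 164 to 805 bp from the lower end, 8 fragments had mean ratios of -0.63, -1.43 and -1.02 in naïve flies and -0.96, -1.26 and -1.21 in unpaired flies at TI-1. In paired flies at TI-1 the same stretch was at -0.38, -0.12 and 4.16. The paired values lay above all naïve and unpaired values of this stretch, with differences of 0.58, 1.14 and 5.38 in the 3 pairs.

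The next 12 fragments, from 805 to 1421 bp, were within 0.09 of 0 in every profile and carried no difference. Several fragments there are listed at exactly 0, and between 16% and 48% of the CCT4 fragments were at 0 in a given profile. Beyond them, 2 fragments from 1421 to 1827 bp had -0.72, -0.65 and -1.03 in unpaired flies and 0.58, -0.05 and 4.07 in paired flies at TI-1, with differences of 1.30, 0.59 and 5.11. Both stretches thus moved in the same direction in all 3 pairs and lie on either side of a stretch without signal.

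At the ends of the gene the differences in pairs 1 and 2 were smaller. The lowest 2 fragments differed by -0.03, -0.08 and -0.09. The last fragment, 942 bp long and shared with the neighbouring gene CG6153, differed by 0.01, 0.11 and 2.49. In all, 13 of the 25 CCT4 fragments were above 0 in all 3 pairs, and 10 fragments showed a difference of exactly 0 in pair 3. CCT4 was chosen for being above 0 in these pairs, so the count is a description. Neighbouring short fragments carried identical values in places, so fragments are not independent measurements.

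**Figure D4:**
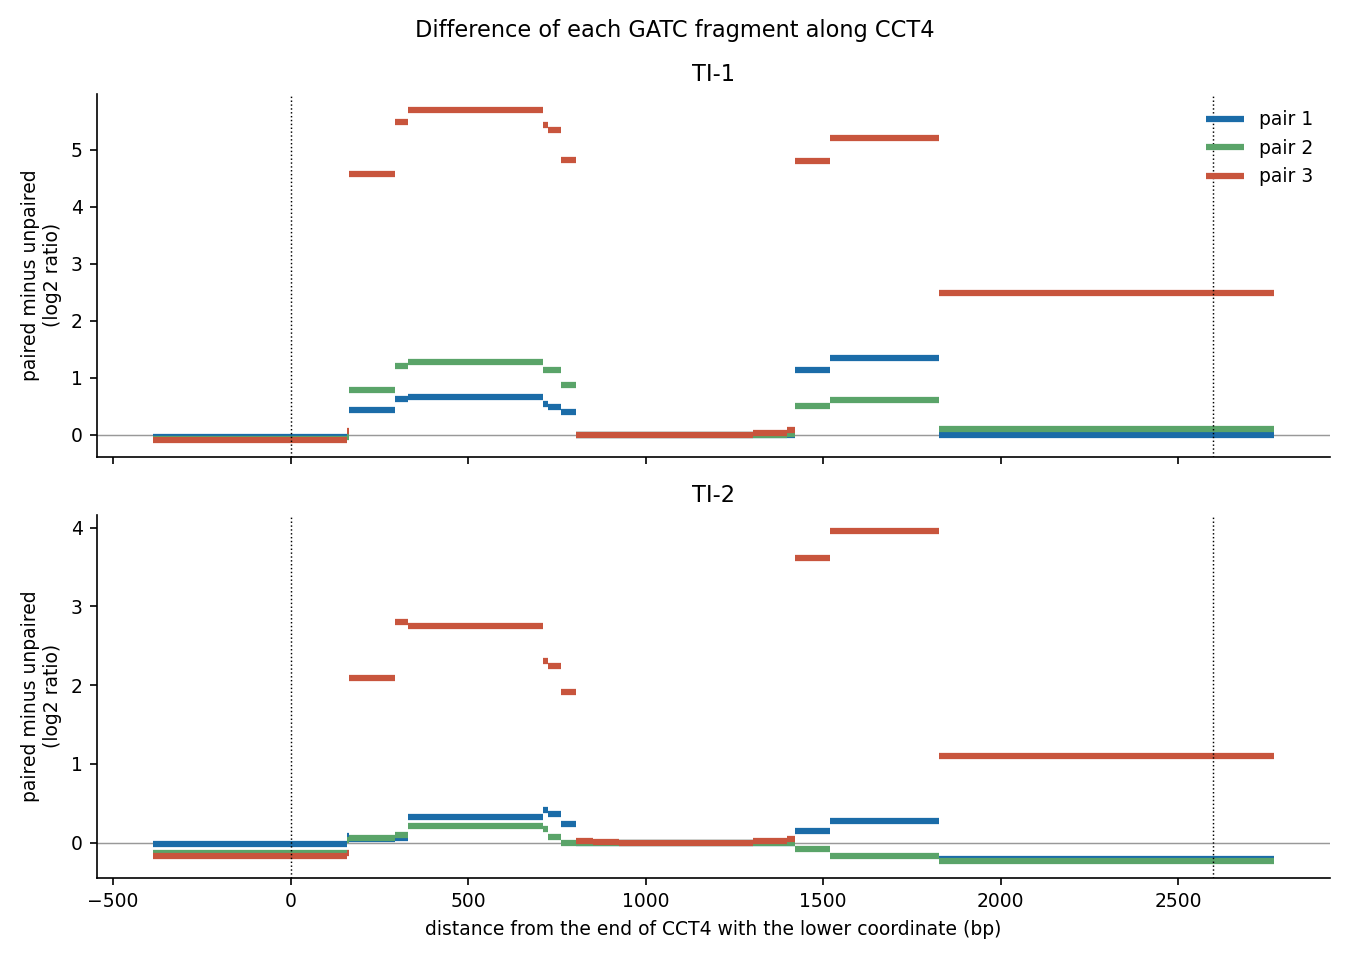
Paired minus unpaired difference in log2 ratio (vertical axis) for the fragments of CCT4, placed by distance in bp from the lower end of the gene, in the 3 pairs of TI-1 and of TI-2. At TI-1 the stretches at 164 to 805 bp and 1421 to 1827 bp are above 0 in every pair, and the stretch between them is at 0.

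At TI-2 the same stretches of CCT4 were set against each other in other flies. The stretch at 164 to 805 bp differed by 0.25, 0.15 and 2.53 between paired and unpaired flies, and that at 1421 to 1827 bp by 0.25, -0.15 and 3.88. The last fragment differed by -0.20, -0.24 and 1.10. Outside replicate 3 these differences were smaller in size than those of TI-1, apart from the last fragment.

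The genes next to CCT4 did not share its TI-1 values in pairs 1 and 2. CG6153, which begins 59 bp beyond CCT4 and shares a fragment with it, differed by -0.03, 0.05 and 1.82. pdm2, a POU-domain transcription factor gene 4030 bp away on the other side, differed by -0.01, 0.04 and 0.28. Over the 10000 bp flanking the gene, the differences were -0.02, 0.05 and 0.30 on the lower side and -0.02, -0.06 and 1.32 on the higher side. In pairs 1 and 2 these genes and windows thus lay within -0.06 to 0.05, against 0.28 and 0.33 for CCT4.

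Within the other subunits, fragments above 0 in all 3 TI-1 pairs were fewer as a share of the gene than in CCT4. Because CCT4 was chosen on this contrast and no share over all fragments is given, nothing is read from that order. Such fragments numbered 9 of 19 in CCT1, 8 of 22 in CCT2, 6 of 17 in CCT5, 2 of 15 in CCT8, 2 of 20 in CCT7, 1 of 17 in CCT6 and 1 of 12 in CCT3. CCT2 held a fragment with differences of 0.38, 0.73 and 3.66, the closest in size to those of CCT4, with lower values on both sides of it. The fragment of CCT5 with the largest difference in pair 3 had 0.44, 0.07 and 4.37.

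CCT6 and CCT7 held fragments that went in opposite directions. A fragment of CCT6 differed by 0.64, -0.75 and 2.19 in the 3 pairs. The long lowest fragment of CCT7, which is shared with other genes, differed by -0.78, -0.30 and -0.995. With unshared fragments alone, the mean TI-1 difference of CCT7 was 0.71 in place of 0.30 and that of CCT6 was 0.45 in place of 0.19. These means include replicate 3 and are not given by pair. Over all fragments, shared ones included, the means without replicate 3 were -0.20 for CCT7 and -0.09 for CCT6. A shared fragment of CCT6, 910 bp long, differed by -0.57, -0.06 and 0.38. The signs of CCT6 and CCT7 in pairs 1 and 2 thus hold for all fragments together and were not computed on unshared ones. EndoG, a mitochondrial nuclease gene that overlaps one end of CCT5, differed by 0.59, -0.02 and 2.47.

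At TI-2 the paired minus unpaired contrast was not used to choose the genes, and it compares the same training a day later. CCT4 had log2 ratios of -0.28, -0.51 and 0.63 in paired flies and -0.29, -0.43 and -0.69 in unpaired flies, so the groups overlapped. Its differences were 0.02, -0.08 and 1.31 (mean 0.42 ± 0.78, SD, n = 3), and without replicate 3 the mean was -0.03. All 8 subunits were above 0 in pair 1, by 0.01 to 0.22, and in pair 3, by 0.43 to 1.31. In pair 2 only CCT6 was above 0, at 0.05, and the others ran from -0.32 for CCT8 to -0.01 for CCT2. The all-gene medians were 0.02, -0.05 and 0.09.

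Mean differences at TI-2 ran from 0.14 for CCT3 to 0.42 for CCT4, and without replicate 3 from -0.10 for CCT7 to 0.04 for CCT2. All 8 had an adjusted p of 0.892 (limma). No gene was called at an adjusted p of 0.01 (0% in either direction). At an unadjusted p of 0.05 and a size above 0.2, 0.292% of genes were higher and 0.28% lower, with no subunit among them. CCT6 was the only subunit above 0 in all 3 pairs, at 0.01, 0.05 and 0.63, against 8.59% of all genes, and the only one above 0 in pairs 1 and 2, against 14.2%. It was also the only one whose paired profiles all lay above the unpaired ones, against 3.22%. No subunit was below 0 in all pairs (8.88% of genes), below 0 in pairs 1 and 2 (21.8%) or above 0.2 in all pairs (0.332%).

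The TI-2 sign count of CCT6 depended on the scale. With each profile centred on its median gene, CCT2 and CCT6 were above 0 in all pairs (10.9% of all genes), and with quantile normalization only CCT2 was (7.77%), since CCT6 was then at -0.04 in pair 1.

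The change between intervals was tested as the TI-1 difference minus the TI-2 difference. It contains the TI-1 values by which the genes were chosen, so it is a description for them. For CCT4 it was 0.61 (SE 0.75), or 0.34 without replicate 3, and all 8 subunits had an adjusted p of 1 (limma). No gene was called at an adjusted p of 0.01 (0%), and at an unadjusted p of 0.05 and a size above 0.2 none was higher (0%) and 0.469% were lower, with no subunit among them. Without replicate 3, 53 of the 17480 genes were higher and 368 lower by these criteria, with CCT4 the only subunit among them.

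The comparisons with naïve flies place paired and unpaired values on a common base, and all of them share the naïve profiles. Unpaired flies at TI-1 differed little from naïve flies in the subunits. CCT4 was at -0.47 ± 0.09 (SD, n = 3) against -0.49 in naïve flies, and all 8 genes overlapped the naïve range. Across genes, 22.6% lay entirely above and 1.32% entirely below the naïve values. The subunits had limma adjusted p from 0.440 to 0.962, with 0% of genes called, and at an unadjusted p of 0.05 and a size above 0.2, 7.37% of genes were higher and 0.429% lower, with no subunit among them.

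Paired flies at TI-1 had CCT4 at 0.56 ± 1.17 (SD, n = 3), which is 1.06 above naïve flies (SE 0.60, limma adjusted p = 0.542). The mean of its replicates 1 and 2 was -0.11, and without replicate 3 of both groups the difference was 0.41. These paired values are also those by which the genes were chosen, so they are a description. CCT4 was the only subunit whose paired values all lay above the naïve ones, as they did for 19.2% of all genes, and no subunit lay entirely below (4.61%). The adjusted p of the subunits ran from 0.542 to 0.622 with 0% of genes called. At an unadjusted p of 0.05 and a size above 0.2, 0.378% of genes were higher and 1.62% lower, with no subunit among them. Without replicate 3, 554 of the 17480 genes were higher and 141 lower, with CCT4 the only subunit among them.

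At TI-2, unpaired flies had CCT4 at -0.47 ± 0.20 (SD, n = 3). CCT6 lay entirely below the naïve range, at 0.24, 0.21 and 0.15 (difference -0.13, or -0.12 without replicate 3, limma adjusted p = 0.481), as did 5.58% of genes, and no subunit lay entirely above (10.9%). At an unadjusted p of 0.05 and a size above 0.2, 3.2% of genes were higher and 3.28% lower, without a subunit. In paired flies at TI-2, CCT5 lay entirely above the naïve range, at 0.25, 0.21 and 0.36 (difference 0.16, SE 0.06, limma adjusted p = 0.704, and 0.14 without replicate 3), as did 9.11% of genes, and no subunit lay entirely below (3.23%). At an unadjusted p of 0.05 with a difference above 0.2 in size, 1.68% of genes were higher and 1.53% lower. CCT5 passed that p (0.0405, limma) but not the size, and no other subunit passed that p. At an adjusted p of 0.01, 0% of genes were called in either comparison.

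The subunits varied together to a limited degree over the 15 profiles. Spearman's rho over the 28 pairs of subunits ran from 0.24 (CCT1 and CCT7) to 0.80 (CCT1 and CCT3) on the log2 ratio, with a median of 0.53. After removal of replicate 3 of the paired flies it ran from -0.18 to 0.69 with a median of 0.28. On percentiles within each profile the median was 0.26 with all profiles and 0.13 in the 13 that remained. The profiles share training groups and Dam-only libraries of the same design, so these coefficients describe this set of profiles.

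The 5 genes whose percentiles followed CCT4 most closely over the 15 profiles were not subunits. These profiles include the TI-1 ones by which CCT4 was chosen, and the 5 genes were picked for their likeness to CCT4. Their TI-1 differences are therefore a description, and nothing is read from them. Among 12351 genes with at least 5 fragments, the highest Spearman's rho belonged to nonC (0.94), which encodes a kinase of nonsense-mediated decay, Skel (0.91), CG14961 (0.91), the cuticle protein gene Ccp84Ad (0.91) and CG10336 (0.91). Their TI-1 differences were 0.10, 0.17 and 2.31 for nonC, 0.03, 0.04 and 1.79 for Skel and 0.16, 0.29 and 2.52 for CG14961. Ccp84Ad had 0.12, 0.09 and 2.75, and CG10336 had 0.06, 0.28 and 1.74. Of the subunits, CCT5 (0.58) and CCT2 (0.58) came nearest, with 955 and 998 genes ranking higher, and CCT7 had a rho of 0.

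Genes that work with the chaperonin were read in the same contrasts from lists drawn up by known function. Of 9 prefoldin subunits and other co-chaperones, none was above 0 in all TI-1 pairs, against 10.3% of all genes. The phosducin-like protein gene viaf and CG4511 were below 0 in all 3, against 10.1%. Their median differences were -0.08, -0.07 and 0.32. Pfdn6, covered by a single fragment, had the highest naïve ratio of this list at 1.44, and Pfdn5 the lowest at -0.13. A list of 9 genes is too short to read these counts as a result.

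The main substrates of the complex were read next. Of 10 tubulin genes, betaTub85D (0.07, 0.05 and 1.64) and gammaTub37C (0.04, 0.16 and 2.28) were above 0 in all TI-1 pairs, and betaTub56D (-0.24, -0.49 and -0.75) was below 0 in all. Of 6 actin genes, Act88F (0.06, 0.01 and 1.37) was above 0 in all pairs and Act5C (-0.09, -0.23 and -0.02) below. Over all genes, 10.3% were above 0 in all TI-1 pairs and 10.1% below, so nothing is read from these small counts. The naïve level differed widely within both families, from -0.61 for betaTub85D to 1.70 for alphaTub84B and from -0.63 for Act79B to 1.59 for Act42A.

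Of 5 genes for WD-repeat proteins, a class of CCT substrates, none was above 0 in all TI-1 pairs (10.3% of all genes). Their medians were -0.18, -0.11 and 0.62. Of 4 genes for the mitochondrial Hsp60 chaperonin, which is related to CCT but a separate complex, Hsp60B (0.09, 0.03 and 1.35) was above 0 in all. CCT4, chosen on this contrast, was the only gene of the 6 lists above 0.2 in all TI-1 pairs, which 0.383% of all genes were. At TI-2, gammaTub23C, Act5C, Gbeta5 and CCT6 were the genes of these lists above 0 in all pairs, against 8.59% of all genes. None of the listed genes was called in either contrast (limma adjusted p from 0.836 to 1 at TI-1 and from 0.892 to 1 at TI-2).

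**Figure D5:**
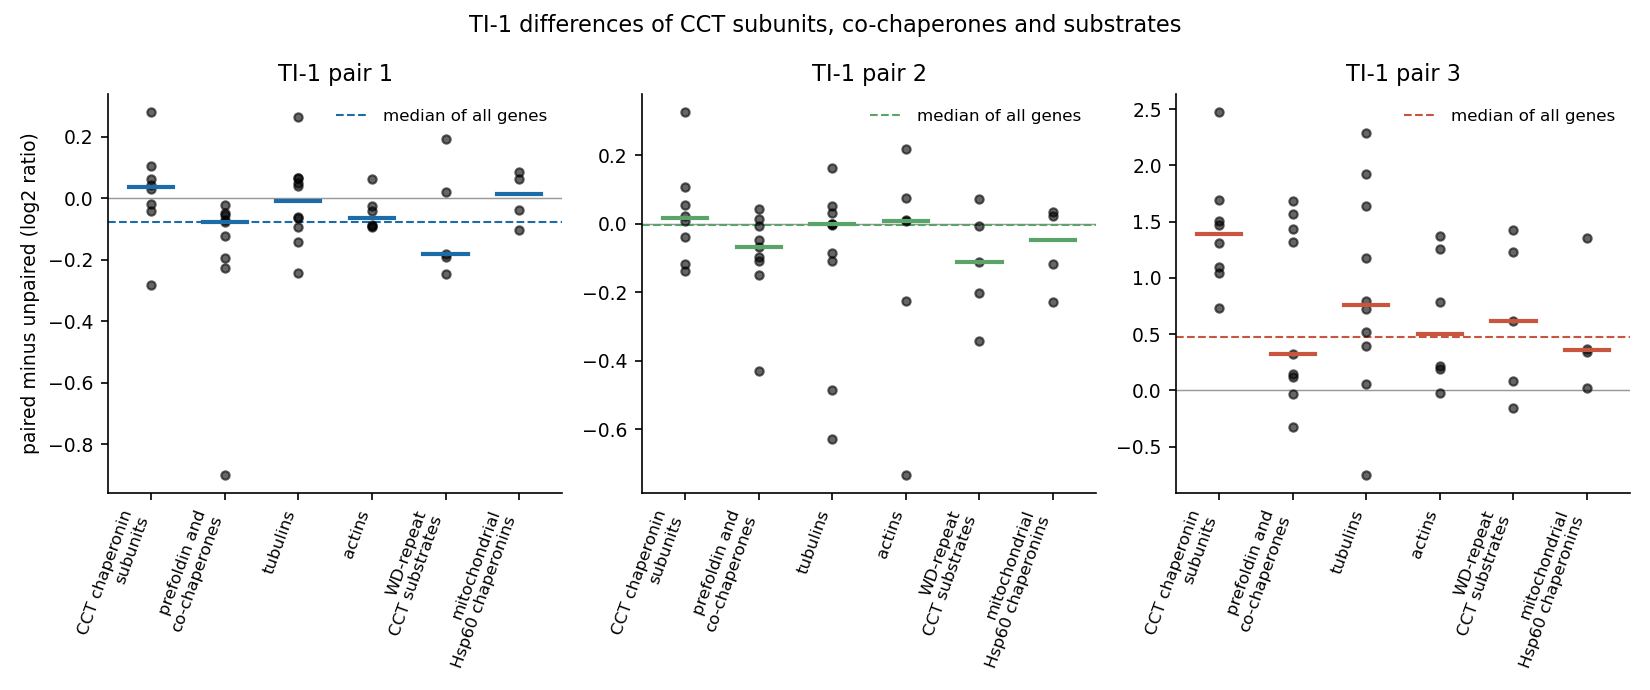
Paired minus unpaired difference at TI-1 in log2 ratio (vertical axis) for the CCT genes and for prefoldin and other co-chaperones, tubulins, actins, WD-repeat substrates and mitochondrial Hsp60 chaperonins, with 1 marker per gene in each pair. In pairs 1 and 2 the list medians lie between -0.18 and 0.04, and CCT4 is the only gene above 0.2 in all 3 pairs.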

How the data were processed

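Dam::CrebB and Dam-only libraries from heads of paired, unpaired and naïve flies were used, grouped by their labels. The authors aligned read 1 with the damid pipeline to release 6 of the genome, binned and normalized the reads and deposited log2 ratios (Dam::CrebB relative to Dam-only) for each GATC fragment, with 383654 fragments of 197 bp median length. Between 12.4% and 21.6% of fragments per profile are at exactly 0. The deposited gene lists, a ratio and an FDR per transcript from the authors' own comparisons, were not used.

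Gene values are length-weighted means over overlapping fragments, with gene positions from a RefSeq table of release 6. Of 17807 genes, 17480 had a value other than 0. Paired minus unpaired differences within replicate numbers went into a two-sided limma test against 0 (R 4.3.3, limma 3.58.1, lmFit with eBayes), adjusted by Benjamini-Hochberg over all 17480 genes. Calls needed a size above 0.2 and an adjusted p below 0.01. Comparisons with naïve flies had no replicate block. The code was run on simulated data with equal spread in all replicates and large known changes. The TI-1 pairs had unequal spread (all-gene SD 0.17, 0.15 and 0.78), so that run does not show how the test performs on them. Python 3.11.15, numpy 2.4.6, pandas 2.3.3, scipy 1.17.1 and matplotlib 3.10.9 were used.

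Named genes were the 8 subunits, their nearest neighbours, the 5 genes most like CCT4 and list members with 1 sign in all pairs or an extreme naïve level; fragments and stretches were picked after their values were seen. The members and lists were chosen with earlier results of these data known. The replicates are stated to be biological, and p-values measure the spread between these samples. Alternatives were other weightings, scalings, filters, thresholds and left-out replicates. Sequences were not analysed here.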

Additional observations from a re-analysis of the deposited data

Results flagged for a closer look

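Among the listed genes, Act5C, which encodes a broadly expressed cytoplasmic actin, was flagged for having opposite signs at the 2 intervals. Its paired minus unpaired differences were all below 0 at TI-1 (mean -0.11) and all above 0 at TI-2 (mean 0.40), a difference between intervals of -0.51 with a limma adjusted p of 1. Without replicate 3 the means were -0.16 and 0.07 and the difference -0.22.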

How the results depend on the processing

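No CCT subunit was called in a paired minus unpaired contrast under any alternative run. Over 11 alternatives, the mean TI-1 difference of CCT4 ran from 0.30 (without replicate 3) to 1.40 and stayed above 0, as did those of CCT1, CCT2, CCT5 and CCT8, while CCT3 and CCT7 were above 0 in 10 and CCT6 in 8. At TI-2 CCT4 ran from -0.03 (without replicate 3) to 0.67. Of 688 subunit values under alternatives, 69 changed sign, 21 of them without replicate 3, and none was a called value. The naïve test against 0 depended most on the setting. It called no gene at an adjusted p of 0.01, but 5018 with each profile centred, 4283 with X and autosomes centred separately, 7184 after quantile normalization, 4225 with at least 5 fragments, 3802 with fragments at 0 left out and 8021 at an adjusted p of 0.05. The subunits called were then 2, 1, 3, 2, 2 and 3. Leaving out each naïve replicate gave 0 to 4194 genes, the highest without replicate 1. The cause was not tested. Between paired and unpaired samples of the same replicate number, deviations from group means correlated at r of 0.54, 0.03 and 0.46 at TI-1. At TI-2 r was -0.13, -0.09 and -0.25, so the numbers did not pair the samples in the same way at both intervals. Without the replicate block 0 genes and 0 subunits were called, and at an unadjusted p of 0.05 with a size above 0.2, TI-1 had 2 genes higher and 83 lower (1 and 179 with the block), and TI-2 had 68 and 37 (51 and 49). Promoter windows were planned but not run, since strand was not used here. The unknown read depth limits every ratio.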
